A study of Mus musculus with 12 samples.

Results

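The C/EBP family loci were taken as all DNase I hypersensitive sites (DHSs) within 100 kb on either side of the bodies of Cebpa, Cebpb, Cebpd, Cebpe and Cebpg. They held 165 of the 170207 DHSs that 12 libraries of mouse haematopoietic cells defined together. In DNase-seq the enzyme DNase I cuts accessible chromatin, and a peak is a stretch where such cuts pile up. A DHS is here a region formed by the overlapping peaks of all libraries. Of the 165 sites, 47 had a peak in a single library and 118 had one in at least 2, and only the latter were tested.

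The libraries covered 5 groups. Freshly sorted LSK cells (marrow cells without lineage markers that carry SCA1 and KIT) gave 3 libraries. LSK cells grown on the immobilized Notch ligand Delta1ext-IgG gave 2 libraries each of DN1 (KIT++CD44+CD25-), DN2a (KIT++CD44+CD25+) and DN2b (KIT+CD44loCD25+) cells, which are successive early T cell precursors. LSK cells grown on human IgG1, without ligand, gave the 3 IgG libraries. All cells came from C57BL/6J mice, and all cultures received SCF, FLT-3 ligand, IL-6 and IL-11. IL-7 was added for the DN2a and DN2b cells and not for DN1, so both the stage and the cytokine change between DN1 and DN2. The methods describe IL-7 for Delta1 cultures and do not mention it for IgG cultures. They describe a sort for the LSK, DN1, DN2a and DN2b cells and do not mention one for the IgG cells after culture. Ligand, IL-7 and sorting may therefore all differ between Delta1 culture and IgG. Independent LSK isolates were used, but DN1, DN2a and DN2b cells were sorted from cultures of each, so 1 isolate may stand behind several libraries, and which ones is not given. The p-values measure the spread between libraries as if they were independent. The comparisons ask which sites at these loci open or close as LSK cells pass through the Delta1 culture, and which do so in culture without the ligand.

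C/EBP proteins are basic leucine zipper transcription factors that bind DNA as pairs. C/EBPα specifies granulocyte and monocyte progenitors, and its loss stops granulocyte formation. C/EBPβ drives granulocyte production under stress and acts in macrophages, C/EBPδ responds to inflammatory signals, and C/EBPε governs late granulocyte maturation. C/EBPγ is a short member that pairs with the others and lacks an activation domain. High levels of C/EBPα or C/EBPβ turn lymphoid precursors into macrophages, and T cell precursors silence Cebpa. A known enhancer about 37 kb downstream of Cebpa drives it in myeloid progenitors.

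Coordinates are mm10, counted from 1. Cebpa (ENSMUSG00000034957.10) lies at chr7:35119293-35121928 on the plus strand and Cebpg (ENSMUSG00000056216.9) at chr7:35046422-35056573 on the minus strand, and their windows overlap. Cebpb (ENSMUSG00000056501.3) lies at chr2:167688915-167690418 and Cebpd (ENSMUSG00000071637.5) at chr16:15887286-15891031, both on the plus strand. Cebpe (ENSMUSG00000052435.7) lies at chr14:54710360-54712174 on the minus strand. The Cebpa and Cebpg windows together held 40 sites (27 tested), the Cebpb window 56 (42 tested), the Cebpd window 20 (14 tested) and the Cebpe window 49 (35 tested). Sites are named by the nearer member gene and the distance of their midpoint from its 5' end, positive downstream. Of all 165 sites, 16 lay within 1 kb of the 5' end of a member, 22 within 1 kb of that of another protein-coding gene and 127 at neither. At the edge of the windows, the outermost Cebpb site inside lay 99.77 kb before the gene and had a peak in 12 libraries, and the first outside lay 110.11 kb before it and had one in 9.

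The sequences below are the central 150 bases of the 8 sites that the results turn on most. They were read from the GRCm38 assembly (the assembly behind mm10) on its plus strand, 5' to 3'. Capitals mark matches, on either strand, to the short motifs that were searched: TTGCGCAA and TTNNGNAAT (C/EBP), TGTGGT (RUNX), GAGGAAGT (PU.1), AGATAA (for GATA factors), TGGGAA (RBPJ, the DNA-binding partner of Notch), CAGCTG (E box), ACAGGAAG (ETS) and TGACTCA (AP-1). The PU.1 and ETS letters share a core, and a C/EBP palindrome next to the right base also matches the longer C/EBP pattern.
Cebpa +37.4 kb: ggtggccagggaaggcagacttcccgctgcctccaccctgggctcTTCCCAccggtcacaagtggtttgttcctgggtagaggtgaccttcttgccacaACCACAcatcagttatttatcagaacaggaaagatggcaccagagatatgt
Cebpa promoter: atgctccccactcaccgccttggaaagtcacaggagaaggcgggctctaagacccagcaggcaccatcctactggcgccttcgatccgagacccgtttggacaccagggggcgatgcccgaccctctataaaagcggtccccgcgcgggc
Cebpg -30.2 kb: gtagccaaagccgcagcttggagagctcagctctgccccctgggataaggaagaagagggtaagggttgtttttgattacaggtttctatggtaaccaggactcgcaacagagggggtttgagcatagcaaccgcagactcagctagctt
Cebpb -39.5 kb: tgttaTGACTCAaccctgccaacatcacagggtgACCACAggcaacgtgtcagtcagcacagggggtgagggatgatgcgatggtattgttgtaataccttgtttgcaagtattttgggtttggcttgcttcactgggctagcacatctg
Cebpb +35.0 kb: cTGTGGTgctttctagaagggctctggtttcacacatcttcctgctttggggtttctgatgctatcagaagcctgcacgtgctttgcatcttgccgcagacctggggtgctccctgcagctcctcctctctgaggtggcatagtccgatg
Cebpb +65.2 kb: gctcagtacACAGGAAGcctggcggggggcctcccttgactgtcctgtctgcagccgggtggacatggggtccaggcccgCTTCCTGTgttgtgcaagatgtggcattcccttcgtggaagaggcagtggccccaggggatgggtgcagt
Cebpd promoter: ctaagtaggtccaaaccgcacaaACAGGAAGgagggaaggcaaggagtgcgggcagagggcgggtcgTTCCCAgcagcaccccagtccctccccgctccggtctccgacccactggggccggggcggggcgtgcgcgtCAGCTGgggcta
Cebpe -2.7 kb: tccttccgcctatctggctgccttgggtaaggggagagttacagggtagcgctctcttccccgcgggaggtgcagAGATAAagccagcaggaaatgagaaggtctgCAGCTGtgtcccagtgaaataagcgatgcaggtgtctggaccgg

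The Cebpa +37.4 kb site (chr7:35156647-35156796) is the known enhancer, and it held 1 RUNX and 1 RBPJ match. The Cebpa promoter site (chr7:35119137-35119286) and the Cebpg -30.2 kb site (chr7:35086677-35086826) held none. The Cebpb -39.5 kb site (chr2:167649387-167649536), open in IgG libraries alone, held an AP-1 and a RUNX match, and the Cebpb +35.0 kb site (chr2:167723827-167723976), closed in IgG libraries alone, held 1 RUNX match. The Cebpb +65.2 kb site (chr2:167754007-167754156) held 2 ETS matches, 1 on each strand. The Cebpd promoter site (chr16:15887107-15887256) held an RBPJ, an E box and an ETS match, and the Cebpe -2.7 kb site (chr14:54714807-54714956), open in Delta1 culture alone, held a GATA and an E box match. Cut to 150 bases about their midpoints, 23.1% of all 170207 DHSs held the RUNX letters, 12.8% those of RBPJ, 11.5% the E box, 8.25% those of GATA, 6.01% those of AP-1 and 5.59% those of ETS. A match is a run of letters and not a shown binding site.

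The lists hold no reads, so depth is unknown, and each peak carries a score of unstated meaning, from which only its rank in the library was taken. The value given for a site is its score percentile, from just above 0 for the lowest peak of a library to 100 for the highest, and 0 where the library had no peak. Libraries held between 32952 and 111582 peaks. The IgG lists were the shortest (32952 to 37511), and the 2 DN2b lists differed the most (61484 and 111582). A long list reaches weaker peaks and so raises the percentile of every stronger one. Over all 114527 tested DHSs the median difference of the Delta1-cultured groups minus IgG was 13.8 points as deposited and 1.78 points when each list was cut to its 32952 top-scoring peaks. A contrast described here is therefore set beside its value at equal list lengths where its call changed. A site with peaks in at least 2 libraries of 1 group and at most 1 other library entered the test only through the group where it is high, so its difference is described without a p. The counts of calls include such sites, more of them at equal lengths, where weak peaks drop out. Groups were checked by the promoters of marker genes. Of 8 T lineage markers, 7 to 8 were open in the DN2b, 7 in the DN2a and 4 in the DN1 libraries, 1 to 2 in LSK and 0 in IgG. At equal list lengths these were 7 in DN2b, 6 to 7 in DN2a, 1 to 2 in DN1, 0 to 1 in LSK and 0 in IgG. Of 6 progenitor markers 4 to 5 were open in LSK, 3 to 4 in Delta1 culture and 2 to 3 in IgG. With lists of equal length these were 4 in LSK and DN1, 3 in DN2a and DN2b, and 2 to 3 in IgG. Of 8 myeloid markers 2 to 3 were open in LSK and in Delta1 culture and 3 to 6 in IgG. At equal list lengths, 3 to 6 myeloid marker promoters were open in IgG and 0 to 2 elsewhere. Of 5 mast and basophil markers 0 to 1 were open in IgG and 1 to 3 elsewhere, of 5 erythroid markers 0 and 2 to 3, and of 5 B lineage markers 1 to 2 and 2. As deposited these marker promoters moved with the IgG group, and their part in the results below was not tested. At equal list lengths the mast, erythroid and B lineage gaps narrowed or closed. There 0 to 1 mast and basophil promoters were open both in IgG and elsewhere. The erythroid counts were 0 in IgG and 0 to 2 elsewhere, and the B lineage counts 1 to 2 in both. In such bulk libraries, fewer cells with an open site cannot be told apart from weaker opening in each cell.

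Across the windows, 28 of the 118 tested sites differed between the 5 groups (exact permutation test of the variance share between groups over 138600 divisions of the libraries, adjusted p under 0.05), beside 22.3% of all tested DHSs. Leaving out any library but LSK replicate 2 or DN2b replicate 1 moved this count by over 1.5 times, to between 4 and 16, and the share over all DHSs to between 4.05% and 16.8%. Of the 28, 2 sites kept the call in each of the 12 fits with a library left out. Pairs of groups were compared with limma. From LSK to DN1, 11 sites rose and 2 fell, beside 13.7% and 2.24% of all tested DHSs. That total of 13 became 7 without LSK replicate 1, 8 without LSK replicate 3, 4 without DN1 replicate 1, 20 without DN2b replicate 1 and 22 without DN2b replicate 2. From LSK to DN2b, 7 sites rose and 10 fell, beside 16.3% and 4.68%, and the total of 17 became 34 without DN2b replicate 1. From LSK to IgG, 10 rose and 13 fell, beside 4.83% and 17.0%. From DN1 to DN2b, 2 rose and 10 fell, beside 7.73% and 8.32%, and the total of 12 became 22 without DN2b replicate 1 and 19 without DN2b replicate 2.

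Between DN2a and DN2b limma called 0 sites in either direction, beside 4.08% higher and 0.343% lower among all DHSs. At an unadjusted p under 0.05 there were 7, beside 12% of all tested DHSs, and 5 sites were higher and 6 lower in both DN2b libraries than in both DN2a libraries, beside 19.1% and 2.99% of all tested DHSs. Calls appeared when a library was left out, up to 12 without DN2b replicate 1 (4 without DN2a replicate 1, 3 without DN2b replicate 2, 2 without either DN1 library, 1 without IgG replicate 3). The mean of the 3 Delta1-cultured groups was higher than IgG at 35 sites and lower at 22, beside 37.7% and 7.70%. At equal list lengths 81 sites of the windows could be tested, and this balance turned: 11 were higher and 30 lower in Delta1 culture, beside 24.9% and 21.7% of all DHSs. The exact test was passed by 31 of these 81, beside 30.4% of all DHSs. From LSK to DN1, 5 window sites then rose and 5 fell, beside 8.65% and 6.76%. From LSK to DN2b, 5 rose and 10 fell, beside 14.1% and 11.3%. From DN1 to DN2b, 4 rose and 6 fell, beside 9.27% and 7.94%, and from DN2a to DN2b 2 rose and 2 fell, beside 3.65% and 1.97%. Likewise 19 sites were then higher and 8 lower in IgG than in LSK, beside 12.8% and 15.4%, against 10 and 13 as deposited. The comparisons with LSK share the LSK libraries, and those with IgG share the IgG libraries.

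**Figure D1:**
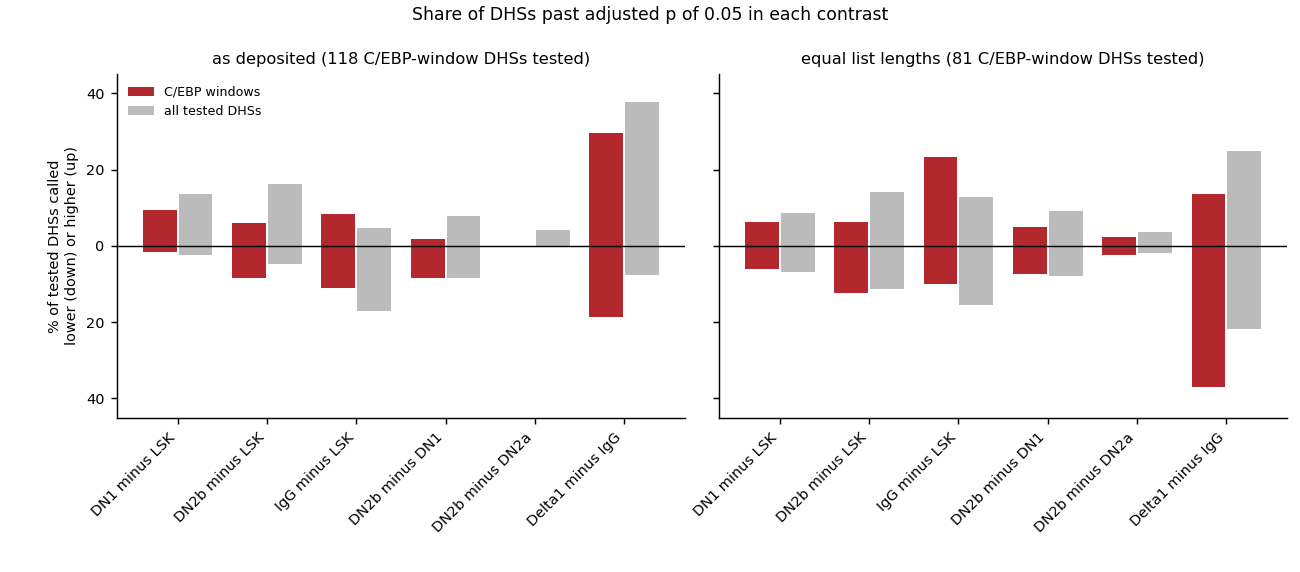
Bars give the percent of tested DHSs past an adjusted p of 0.05 in each limma contrast, higher above and lower below the zero line, for the C/EBP windows (red) and all tested DHSs (grey), as deposited on the left and at equal list lengths on the right. With equal lengths, 30 of 81 window sites were lower in Delta1 culture than in IgG and 11 were higher.

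**Figure D2:**
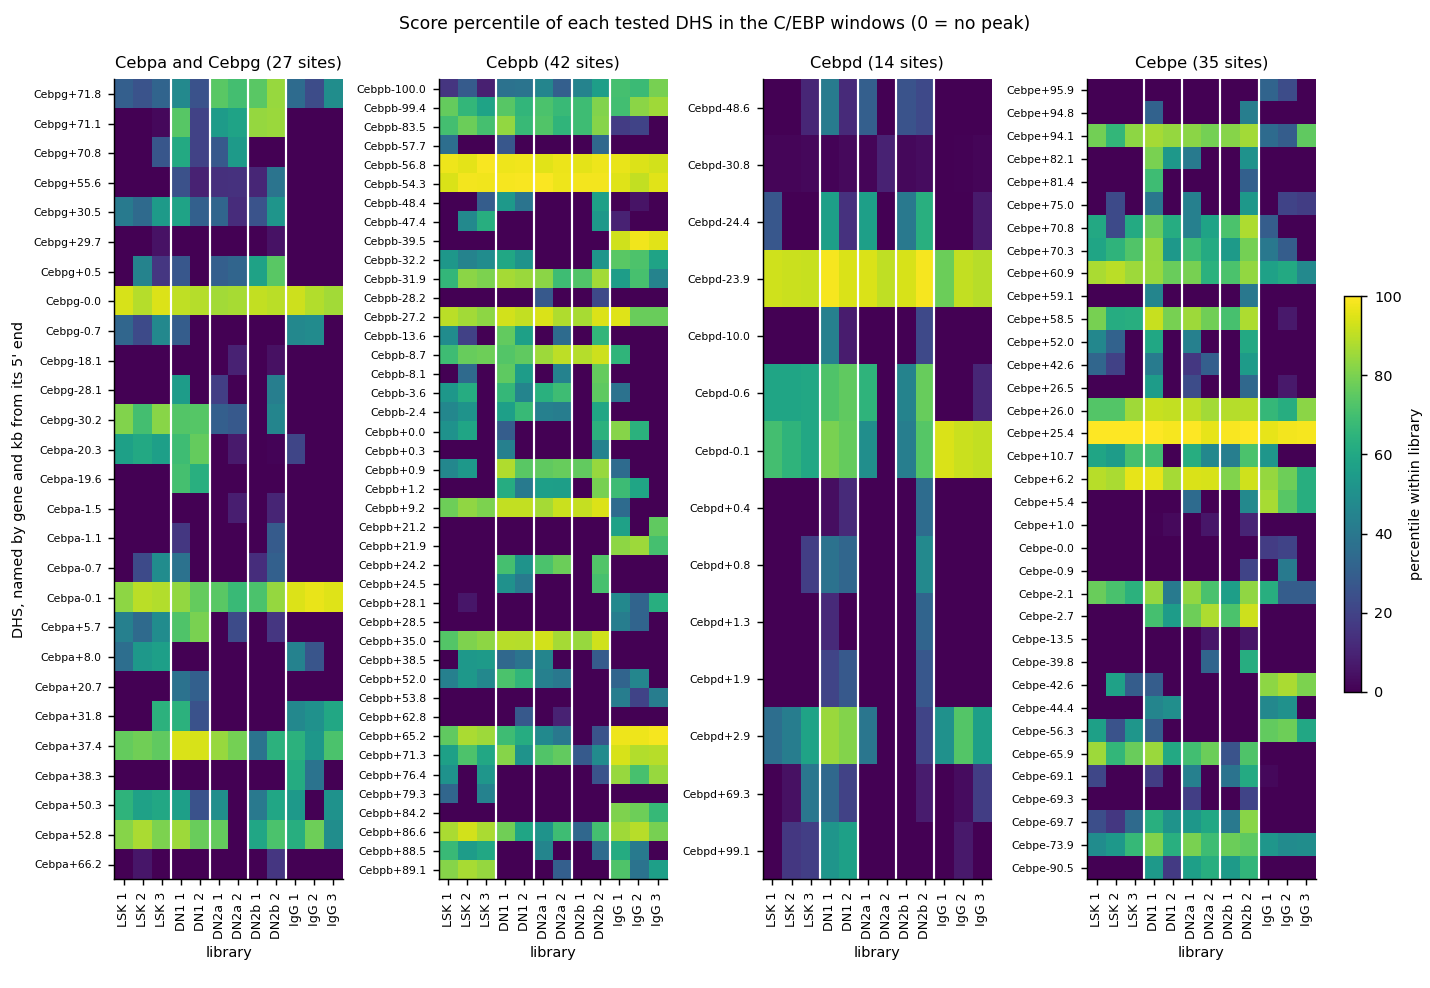
Each row is 1 of the 118 tested DHSs in genome order, each column a library, and the colour gives the score percentile within that library (0, dark, where it had no peak). Blocks that are bright in the 3 IgG columns and dark elsewhere are seen in the Cebpb panel, and rows bright in all 12 columns are the 20 sites with a peak in every library.

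The share of open sites also differed at equal list lengths. With 32952 peaks each, every library had a peak in 41.8% to 42.2% of all DHSs, but in the C/EBP windows this share was 63.7%, 58.8% and 39.2% in IgG, 47.1%, 46.1% and 47.1% in LSK, 45.1% and 40.2% in DN1, 37.3% in both DN2a libraries, and 28.4% and 37.3% in DN2b. IgG replicates 1 and 2 lay above every other library, and IgG replicate 3 lay within the range of the other groups. The DN2a and DN2b libraries lay below all LSK and DN1 libraries. As deposited, the windows held 43 to 68 open sites in an IgG library, 61 to 68 in LSK, 74 to 101 in DN1, 59 to 67 in DN2a and 47 to 111 in DN2b. The 111 belonged to DN2b replicate 2, which had the longest list.

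Cebpa, the gene of the lead granulocyte factor, had a promoter site (at -0.1 kb) with a peak in every library. Its percentiles were 83.0, 89.8 and 88.3 in LSK, 83.6 and 76.2 in DN1, 74.5 and 67.7 in DN2a, 71.8 and 84.2 in DN2b, and 94.7, 96.5 and 95.1 in IgG. The IgG libraries lay above all others. The Delta1-cultured groups differed from IgG by -19.1 ± 3.22 points (SE, limma, adjusted p = 0.00127). As deposited, neither IgG (8.40 ± 3.72 points above LSK, adjusted p = 0.153) nor DN2b (-9.03 ± 4.16 points against LSK, adjusted p = 0.188) differed from LSK beyond the spread. At equal list lengths both did: IgG rose by 17.2 ± 3.36 points (adjusted p = 0.00331) and DN2b fell by 30.8 ± 3.76 points (adjusted p = 0.000204). DN1 then also lay below LSK, by -26.8 ± 3.76 points (adjusted p = 0.000957), with the 6 Delta1-cultured libraries between 43.5 and 51.9 and the LSK libraries between 72.2 and 83.1. A weaker site at -0.7 kb had a peak in 5 libraries, at most 48.7, and no call. The main site kept a peak in every Delta1-cultured library while its rank there was lower at equal lengths.

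The Cebpa +37.4 kb enhancer, in intergenic sequence, also had a peak in all 12 libraries. Percentiles were 76.4, 78.5 and 75.5 in LSK, 94.3 and 93.9 in DN1, 84.5 and 79.2 in DN2a, 38.1 and 64.1 in DN2b, and 64.1, 52.8 and 71.6 in IgG. Both DN1 libraries were the highest of all 12, and both DN2b libraries lay below every LSK, DN1 and DN2a library. From DN1 to DN2b the enhancer fell by 43.0 ± 8.16 points (adjusted p = 0.00572), a call that every fit with a library left out kept. From LSK to DN2b it fell by 25.7 ± 7.45 points (adjusted p = 0.0364), but this call was lost without any LSK, DN1 or DN2a library, DN2b replicate 1 or IgG replicate 1 (adjusted p up to 0.184). With a library left out, this difference ranged from -38.7 to -12.7 points. At equal list lengths no DN2b library kept the enhancer among its 32952 highest peaks, and DN2b fell by 59.8 ± 5.58 points from LSK (adjusted p = 3.8e-05). There DN1 rose by 25.4 ± 5.58 points over LSK (adjusted p = 0.012), against 17.3 ± 7.45 points as deposited (adjusted p = 0.186). DN2b fell by 65.7 ± 6.11 points from DN2a at equal lengths (adjusted p = 0.000409), against -30.8 ± 8.16 points as deposited (adjusted p = 0.0801). IgG differed from LSK by -14.0 ± 6.66 points (adjusted p = 0.189), and at equal lengths the difference was nil (adjusted p = 1.0). The order of the groups thus differed between the 2 sites, with IgG highest at the promoter and DN1 highest at the enhancer. Another site beside it, at +38.3 kb, had a peak in IgG replicates 1 (61.4) and 2 (38.2) alone.

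**Figure D3:**
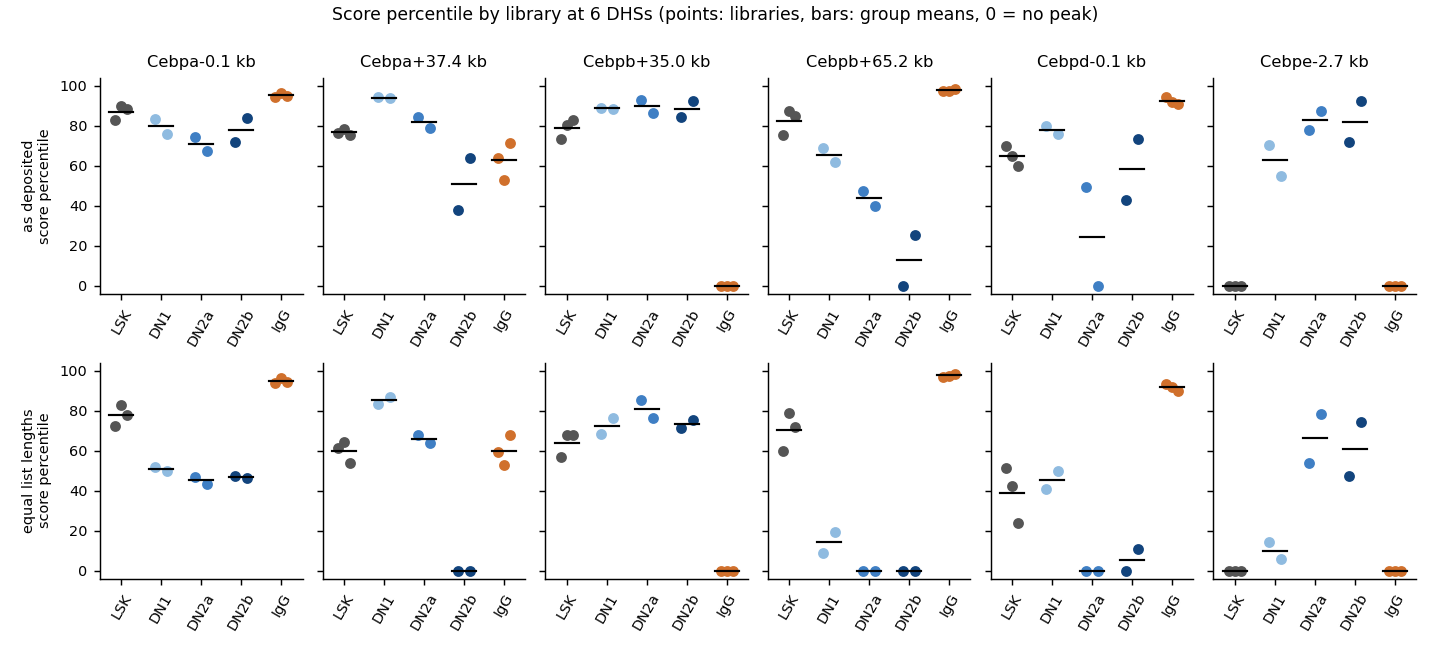
Points are libraries and bars group means of the score percentile at 6 DHSs, as deposited in the upper row and at equal list lengths in the lower row (0 where the library had no peak). The Cebpa enhancer peaks in DN1 and is lowest in DN2b, while the Cebpa and Cebpd promoters and the Cebpb +65.2 kb site are highest in the 3 IgG libraries.

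Other sites between Cebpg and the end of the Cebpa window were open in progenitors and DN1 and fell in DN2b. The site at Cebpg -30.2 kb (chr7:35086657-35086846, intergenic) had percentiles of 81.0, 70.0 and 82.3 in LSK, 73.4 and 73.7 in DN1, 30.3 and 27.8 in DN2a, 0 and 45.6 in DN2b, and no peak in IgG. It fell by 77.8 ± 10.1 points from LSK to IgG (adjusted p = 0.000491) and by 55.0 ± 11.3 points from LSK to DN2b (adjusted p = 0.00686), and kept both calls at equal list lengths. With a library left out, the difference of DN2b ranged from -77.8 to -32.2 points against LSK and from -73.5 to -27.9 against DN1. At equal lengths DN1 also lay below LSK (-28.6 points, adjusted p = 0.0289), against -4.217 points and no call as deposited. All 5 LSK and DN1 libraries lay above all others. The site at Cebpa -20.3 kb (chr7:35098857-35099086, intergenic) read 56.8, 60.5 and 56.4 in LSK, 68.8 and 76.2 in DN1, at most 7.2 in DN2a and DN2b, and 20.8 in 1 of the 3 IgG libraries. It differed between the 5 groups (exact permutation test, adjusted p = 0.0188) and fell by 72.1 ± 8.50 points from DN1 to DN2b (adjusted p = 0.000386). At equal list lengths it lost these calls (DN1 to DN2b, -29.3 points, adjusted p = 0.139). The site at Cebpa +5.7 kb (chr7:35124877-35125066, intergenic) read 43.7, 34.5 and 48.7 in LSK, 72.5 and 80.0 in DN1, 0 and 22.9 in DN2a, 0 and 15.8 in DN2b, and had no peak in IgG. From DN1 to DN2b it fell by 68.4 ± 9.46 points (adjusted p = 0.000941), also at equal lengths (-38.7 points, adjusted p = 0.0247). Its rise from LSK to DN1, 34.0 ± 8.64 points (adjusted p = 0.0252), was lost without LSK replicate 1 or 2 or either DN1 library (adjusted p up to 0.113).

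In all, 6 of the 10 window sites that fell from DN1 to DN2b lay in the Cebpa and Cebpg windows, which held 27 of the 118 tested sites (4 of 6 at equal lengths), beside 8.32% of all tested DHSs. Besides the 4 above (of which Cebpg -30.2 kb fell by 50.8 ± 12.4 points, adjusted p = 0.021, and lost the call without DN1 replicate 1 or 2, adjusted p up to 0.0865), they were 2 sites with a peak in both DN1 libraries and no other, which entered the test through DN1 alone, a pattern shown by 2.63% of all tested DHSs. These were named after their values were seen. The Cebpa -19.6 kb site (chr7:35099597-35099766) read 70.7 and 63.2 in DN1, and the Cebpa +20.7 kb site (chr7:35139917-35140086), in an intron of the non-coding gene Gm35665, read 37.8 and 30.5. The first lies less than 1 kb from the -20.3 kb site. At equal lengths it kept a peak in both DN1 libraries (14.2 and 22.5), and the second had none.

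Cebpg, the short pairing partner, had 3 tested sites within 1 kb of its 5' end. The site just before the 5' end (chr7:35056517-35056726) read between 86.0 and 94.7 in all 12 libraries, and no contrast was called as deposited. At equal lengths the Delta1-cultured groups lay below IgG (difference -14.0 ± 3.98, adjusted p = 0.0186). A site at -0.7 kb (chr7:35057177-35057366) read 33.1, 22.4 and 46.5 in LSK, 29.4 and 0 in DN1, and 46.7, 48.3 and 0 in IgG, and had no peak in DN2a or DN2b. No contrast was called there as deposited (Delta1 culture against IgG, adjusted p = 0.0904), and at equal lengths it kept a peak in IgG replicates 1 (39.3) and 2 (48.3) and LSK replicate 3 (0.4). Inside the gene, at an exon of the overlapping record Gm45095, the site at +0.5 kb (chr7:35055777-35056306) read 57.5 and 74.3 in DN2b, 27.2 and 0 in DN1, 0 to 44.6 in LSK, and had no peak in IgG. Its rise from DN1 to DN2b, 52.3 ± 14.1 points (adjusted p = 0.0334), was lost without LSK replicate 3, DN1 replicate 2, DN2a replicate 1, DN2b replicate 2 or any IgG library (adjusted p up to 0.199). At equal lengths it kept a peak in both DN2b libraries (20.7 and 13.0) and LSK replicate 2 (8.4). Farther downstream, in introns of the peptidase gene Pepd, a pair of sites rose from LSK to DN2b. At Cebpg +71.8 kb (chr7:34984597-34984926) percentiles were 30.2, 25.6 and 32.1 in LSK, 47.2 and 25.0 in DN1, 74.5 and 70.0 in DN2a, 74.4 and 84.6 in DN2b, and 34.9, 23.1 and 48.9 in IgG. DN2a and DN2b libraries lay above all others, and DN2b rose by 50.2 ± 9.12 points over LSK (adjusted p = 0.0034). At equal lengths IgG also rose over LSK there (30.3 ± 5.32 points, adjusted p = 0.00174, against 6.33 and 0.834 as deposited), and the difference of Delta1 culture from IgG, 27.0 points as deposited (adjusted p = 0.013), was 2.13 (adjusted p = 0.756). At +71.1 kb (chr7:34985337-34985526) the DN2b libraries read 84.1 and 85.0, the DN2a libraries 54.9 and 57.9, the DN1 libraries 74.2 and 19.6, and the others at most 2.0. DN2b rose there by 83.9 ± 12.8 points over LSK (adjusted p = 0.00123). Both calls of DN2b over LSK held at equal lengths.

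Cebpb, the gene of the stress and macrophage factor, had 42 of the 118 tested sites and 8 of the 10 that rose from LSK to IgG, a direction taken by 4.83% of all tested DHSs. At equal lengths it had 11 of 19. Sites with a peak in all 3 IgG libraries and no other numbered 4, all in this window, a pattern shown by 2.81% of all tested DHSs. They are named here after their values were seen. The site at -39.5 kb (chr2:167649377-167649546), in an intron of Tmem189, read 92.9, 97.7 and 95.4 in IgG, that at +21.9 kb (chr2:167710677-167710866), in an intron of the non-coding gene A530013C23Rik, 83.0, 85.5 and 70.5, and that at +84.2 kb (chr2:167773037-167773226), intergenic, 80.5, 78.1 and 66.9. The site at +53.8 kb (chr2:167742597-167742746), intergenic, was weaker, at 42.3, 20.0 and 42.4. The mean in IgG was 95.3 points above LSK, where there was no peak, at -39.5 kb, 79.7 at +21.9 kb, 75.2 at +84.2 kb and 34.9 at +53.8 kb. These 4 sites are among the 8 that rose here, and they entered the test through IgG alone. So did the +28.1 kb site below, whose only peak elsewhere was weak. The 11 at equal lengths also include the -100.0 kb site, then open in IgG alone. The filter thus set a large part of both counts, and no conclusion is drawn from their comparison with 4.83%.

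Among the others that rose, the site at -100.0 kb (chr2:167588737-167589146), in an intron of the non-coding gene Gm11476, had a peak in every library. It read 15.3, 28.6 and 8.6 in LSK, 37.8 and 38.3 in DN1, 45.5 and 30.2 in DN2a, 44.9 and 55.9 in DN2b, and 70.7, 68.2 and 79.6 in IgG. IgG rose by 55.3 ± 7.28 points over LSK (adjusted p = 0.00048), and at equal lengths the IgG libraries alone kept a peak there. The other 3 were also named after their values were seen. The site at +28.1 kb read 46.7, 32.4 and 62.8 in IgG, and 6.1 in LSK replicate 2 was its only other peak. Those at +71.3 and +76.4 kb rose by 27.6 ± 8.20 (adjusted p = 0.0396) and 45.5 ± 13.6 points (adjusted p = 0.0407), but lost the call in 7 and 8 of the 12 fits with a library left out, and kept it at equal lengths (adjusted p = 0.00704 and 1.12e-05).

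Other Cebpb sites were lost in IgG. The site at +35.0 kb (chr2:167723797-167724006), in an intron of A530013C23Rik, read 73.4, 80.6 and 82.9 in LSK, 89.1 and 88.7 in DN1, 93.1 and 86.6 in DN2a, 84.7 and 92.7 in DN2b, and had no peak in IgG. It fell by 79.0 ± 4.16 points from LSK to IgG (adjusted p = 2.88e-06). At +9.2 kb (chr2:167697957-167698186), in the same non-coding gene, 9 libraries read between 78.1 and 94.9 and the IgG libraries 34.9, 0 and 0, a fall of 68.9 ± 8.30 points from LSK (adjusted p = 0.000299). At -83.5 kb (chr2:167605277-167605506) the fall was 60.2 ± 7.20 points (adjusted p = 0.000286), from 70.1, 77.7 and 70.6 in LSK to 17.9, 20.0 and 0 in IgG. These falls held at equal lengths. The +9.2 and +35.0 kb sites that fell and the +21.9 and +28.1 kb sites that rose lie in introns of the same non-coding gene.

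A Cebpb site at +65.2 kb (chr2:167753957-167754206), intergenic, carried the lowest exact p of the windows. It read 97.5, 97.5 and 98.7 in IgG, 75.5, 87.3 and 85.2 in LSK, 68.8 and 61.8 in DN1, 47.4 and 40.0 in DN2a, and 0 and 25.5 in DN2b. The groups did not overlap at any step of that order. They differed with p = 1.44e-05 by the exact permutation test (adjusted p = 0.00603), in each fit with a library left out too. DN2b fell by 69.9 ± 7.24 points from LSK (adjusted p = 0.000124) and fell by 52.6 ± 7.93 points from DN1 (adjusted p = 0.00161). At equal lengths the DN1 libraries already read 8.6 and 19.5 and DN2a and DN2b had no peak, so the fall from DN1 to DN2b was no longer called (-14.1 points, adjusted p = 0.269), while that from LSK to DN1 was (-56.3 ± 6.37 points, adjusted p = 0.000271). IgG rose by 27.4 ± 5.70 points over LSK at equal lengths (adjusted p = 0.0048), against 15.2 ± 6.48 as deposited (adjusted p = 0.137). The site at +89.1 kb (chr2:167777897-167778086), in an intron of the non-coding gene Gm14321, read 81.7, 86.8 and 84.1 in LSK, 72.5, 38.2 and 56.4 in IgG, 30.2 in DN2a replicate 2, and had no peak in the other 5 Delta1-cultured libraries. It fell by 84.2 ± 11.1 points from LSK to DN1 (adjusted p = 0.000723).

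Cebpb had 3 tested sites within 1 kb of its 5' end. At its 5' end (chr2:167688857-167689066, in the UTR) 6 libraries had a peak: LSK replicates 1 (50.8) and 2 (58.9), DN1 replicate 1 (29.4), DN2b replicate 2 (64.1) and IgG replicates 1 (81.7) and 2 (63.9). No group was open in all its libraries there, and no contrast was called as deposited. At equal lengths Delta1 culture, then without a peak, lay below IgG (-47.7 ± 15.1 points, adjusted p = 0.0283, against -32.95 points and 0.242 as deposited). Another site in the coding exon, at +0.3 kb, had a peak in DN1 replicate 1 (43.6) and DN2b replicate 2 (44.2) alone. In the coding exon, at +0.9 kb (chr2:167689717-167689906), the Delta1-cultured libraries read between 74.6 and 88.0, LSK 46.2, 53.5 and 0, and IgG 34.9, 0 and 0. Delta1 culture rose by 67.6 ± 12.5 points over IgG (adjusted p = 0.00217), also at equal lengths (45.1 points, adjusted p = 0.00134). Over LSK, DN1 and DN2b rose there at equal lengths (by 43.9 points, adjusted p = 0.0173, and 39.8 points, adjusted p = 0.0177), which was not called as deposited (adjusted p = 0.0832 and 0.0738). This site also lies at the annotated 5' end of the neighbouring gene Tmem189 (0.01 kb from it), so the opening cannot be assigned to either gene from its position.

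**Figure D4:**
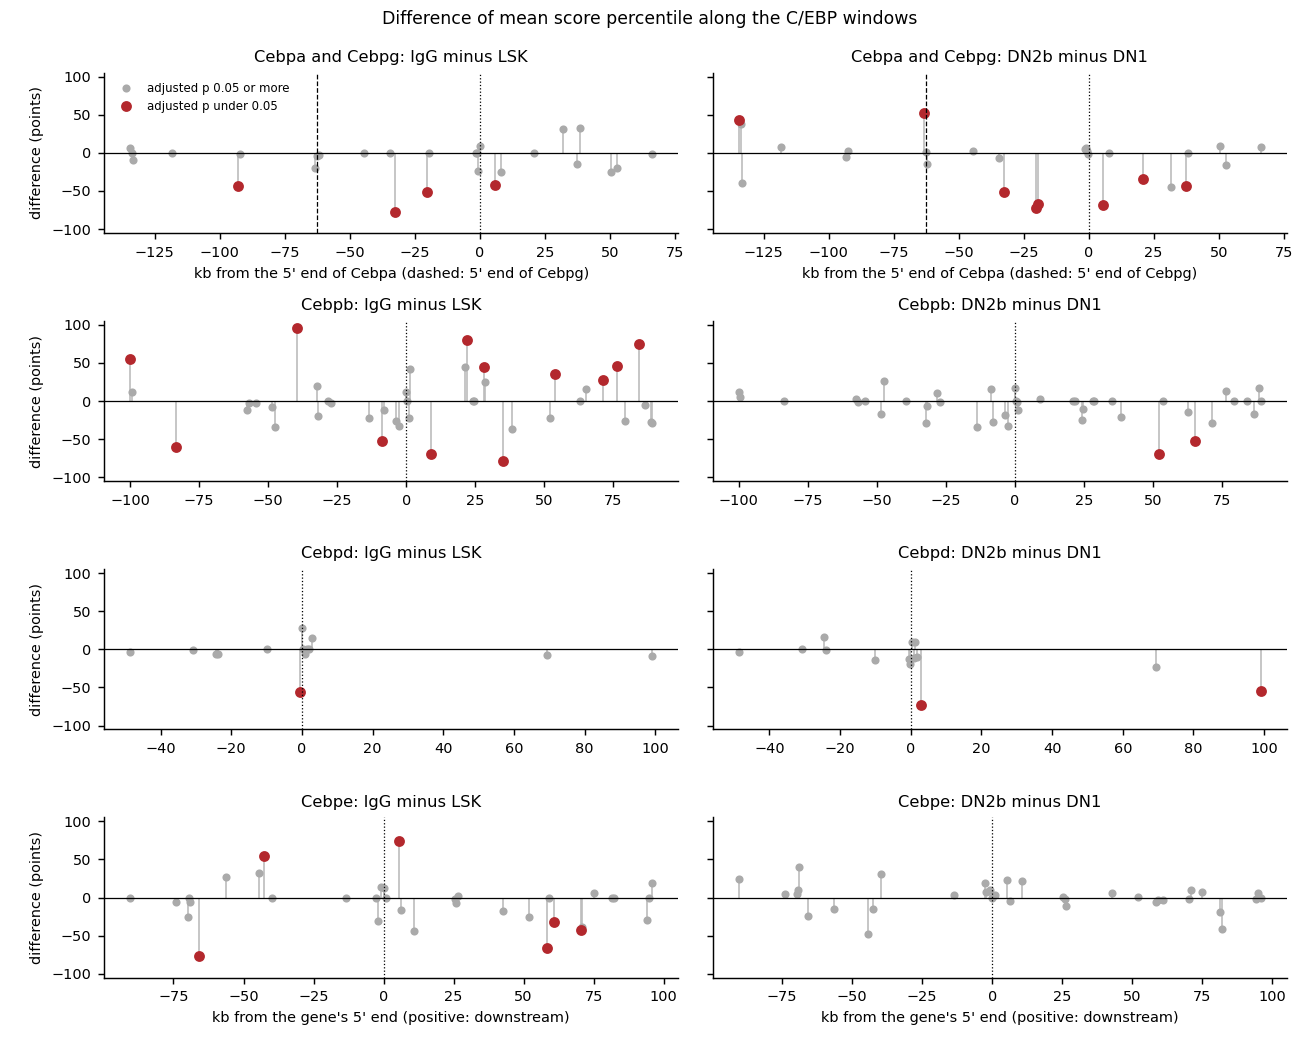
Each point is a tested DHS at its distance from the 5' end of the gene, and its height is the difference of mean score percentile, IgG minus LSK on the left and DN2b minus DN1 on the right (red where the adjusted p was under 0.05). The Cebpb panel, with 42 of the 118 sites, holds 8 of the 10 rises in IgG. Of these, 4 were at sites open in IgG alone, and that at +28.1 kb also entered the test through IgG. The Cebpa and Cebpg panel, with 27, holds 6 of the 10 falls from DN1 to DN2b. Of these, 2 were at sites open in DN1 alone.

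Cebpd, the inflammation-induced member, had a promoter site (chr16:15887037-15887326, at -0.1 kb). It read 70.1, 65.0 and 59.8 in LSK, 79.8 and 76.2 in DN1, 49.3 and 0 in DN2a, 42.7 and 73.7 in DN2b, and 94.4, 91.8 and 91.0 in IgG. The IgG libraries were the 3 highest. Delta1 culture fell by 38.8 ± 10.1 points below IgG (adjusted p = 0.0129). IgG was 27.4 ± 11.7 points above LSK as deposited (adjusted p = 0.138) and rose by 52.7 ± 7.08 points at equal lengths (adjusted p = 0.000342). DN2b fell by 33.6 ± 7.91 points from LSK at equal lengths (adjusted p = 0.0112), against -6.77 ± 13.1 as deposited (adjusted p = 0.829). The neighbouring site at -0.6 kb (chr16:15886617-15886846) went the other way. It read 58.6, 58.9 and 59.8 in LSK, 72.5 and 75.4 in DN1, 64.9 and 0 in DN2a, 44.9 and 76.8 in DN2b, and 0, 0 and 10.7 in IgG, a fall of 55.5 ± 14.7 points from LSK to IgG (adjusted p = 0.0234). That call was lost without any LSK library or IgG replicate 1 or 2 (adjusted p up to 0.0686) and held at equal lengths (adjusted p = 0.042). At the 3' end, the UTR site at +2.9 kb (chr16:15890037-15890266) read 85.0 and 81.3 in DN1, 0 and 20.6 in DN2b, 36 to 58.1 in LSK and 50.7 to 73.1 in IgG. From DN1 to DN2b it fell by 72.9 ± 14.0 points (adjusted p = 0.00604), also at equal lengths and without any single library. Further contrasts were called there at equal lengths alone: IgG rose by 47.4 points over LSK (adjusted p = 0.00156, 0.512 as deposited), DN1 rose by 49.95 points over LSK (adjusted p = 0.00447, 0.085 as deposited) and Delta1 culture lay below IgG (-36.3 points, adjusted p = 0.0023, 0.093 as deposited). In the coding exon, the sites at +0.4 and +0.8 kb had a peak in 3 and 4 libraries, at most 35.3 and 47.1, and no call. At +99.1 kb (chr16:15986237-15986506), in an intron of Spidr, DN1 read 52.2 and 56.9 and the other libraries at most 18.6. The fall from DN1 to DN2b there, -54.55 ± 7.31 points (adjusted p = 0.000753), was lost at equal lengths (adjusted p = 0.527).

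Cebpe, the late granulocyte factor, had almost no promoter opening. The site at its 5' end (chr14:54712077-54712286) had a peak in IgG replicates 1 (17.9) and 2 (20.0) alone, and one at -0.9 kb in DN2b replicate 2 (20.6) and IgG replicate 2 (40.9). Past the 1 kb promoter limit, a site at -2.1 kb, named after its values were seen, had a peak in every library. Upstream, the site at -2.7 kb (chr14:54714797-54714966) had a peak in each of the 6 Delta1-cultured libraries and none in LSK or IgG, a pattern shown by 2.82% of all tested DHSs and by 3 of these 118 (the others were at Cebpe -90.5 kb, 16.9 to 65.9, and at Cebpg +55.6 kb, 9.7 to 38.4, named after its values were seen). It read 70.7 and 55.1 in DN1, 77.8 and 87.7 in DN2a, and 71.8 and 92.4 in DN2b. From LSK, DN1 rose by 62.9 ± 7.86 points (adjusted p = 0.000483) and DN2b by 82.1 ± 7.86 points (adjusted p = 7.05e-05). At equal lengths the DN1 values were 14.2 and 5.6 and the DN1 call was lost (9.90 points, adjusted p = 0.622), while that for DN2b held (60.9 points, adjusted p = 0.000664) and DN2b rose by 51.0 ± 9.65 points over DN1 (adjusted p = 0.00508).

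Downstream of Cebpe, the site at +5.4 kb (chr14:54706677-54706926, intergenic) read 87.1, 74.1 and 62.8 in IgG, 34.9 in DN2a replicate 1, 47.1 in DN2b replicate 2, and 0 elsewhere. It rose by 74.7 ± 13.0 points from LSK to IgG (adjusted p = 0.00266). The site at -42.6 kb (chr14:54754637-54754846), in an intron of the amino acid transporter gene Slc7a8, read 83.0, 87.4 and 80.3 in IgG and 0, 57.2 and 29.5 in LSK, a rise of 54.7 ± 13.2 points (adjusted p = 0.0151, 0.0502 without IgG replicate 2). In the same gene, the site at -65.9 kb (chr14:54777977-54778166) read 85.3, 66.4 and 77.1 in LSK, 25.6 to 85.0 in Delta1 culture, and had no peak in IgG, and fell by 76.3 ± 11.6 points from LSK to IgG (adjusted p = 0.00122). At +58.5 kb (chr14:54653637-54653806), in an intron of Acin1, LSK read 79.6, 62.1 and 62.8, Delta1 culture 70.9 to 91.7, and IgG 0, 6.9 and 0, a fall of 65.9 ± 6.89 points (adjusted p = 0.000123). The falls at -65.9 and +58.5 kb kept their calls at equal lengths, where the +5.4 kb site was open in IgG alone and the -42.6 kb site in IgG and 1 LSK library. All but the +58.5 kb site were named after their values were seen. The sites at -42.6 kb, which rose, and -65.9 kb, which fell, lie in introns of 1 gene. A site at -56.3 kb (chr14:54768417-54768626), in an intron there too, read 76.0, 78.1 and 59.8 in IgG, 56.8, 25.6 and 52.7 in LSK, 29.4 in DN1 replicate 1 and 0 in the other 5 Delta1-cultured libraries. Delta1 culture lay below IgG (-66.4 ± 9.06 points, adjusted p = 0.00035), also at equal lengths, where IgG rose over LSK as well (55.1 points, adjusted p = 0.000634, 0.112 as deposited). At the promoter of Slc7a8 (Cebpe -69.7 kb) Delta1 culture read 40.5 to 82.4, LSK 16.2 to 34.7, and IgG had no peak. Delta1 culture rose there by 58.4 ± 8.84 points over IgG (adjusted p = 0.000668), a call lost at equal lengths (adjusted p = 0.277). At +60.9 kb (chr14:54651177-54651366), in an intron of Acin1, every library had a peak, and IgG (57.1, 60.6 and 46.9) fell by 32.6 ± 5.38 points from LSK (87.4, 89.8 and 85.2; adjusted p = 0.00199), also at equal lengths (adjusted p = 0.0126).

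At 20 sites every library had a peak, beside 11.4% of tested DHSs. They included the Cebpa promoter, the Cebpa +37.4 kb enhancer, the Cebpg promoter and promoters of neighbouring genes. Among them were the promoter of Acin1 (Cebpe +25.4 kb, 96.3 to 99.9) and that of Ube2v1 (Cebpb -56.8 kb, 93.1 to 98.9), both picked for their high values. A peak in all LSK and Delta1-cultured libraries and none in IgG was found at 4 sites (Cebpb +35.0 kb, Cebpg +30.5 kb, Cebpe -65.9 kb and Cebpe -69.7 kb), beside 4.72%. A peak in all LSK and DN1 libraries and none in DN2b was found at 1 (Cebpb +52.0 kb), beside 1.80%. At 0 sites did all LSK and IgG libraries share a peak that Delta1 culture lacked, beside 0.147%.

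C/EBP letters were looked for in the same 150-base windows. TTNNGNAAT matched 12 of the 165 window sites, 7.27%, beside 7.22% of all DHSs, and none of the 10 window sites that rose from LSK to IgG. Of all 5534 DHSs that rose from LSK to IgG, 1815 held the C/EBP letters, 32.8%, and of the 19435 that fell, 4.06%. AP-1 letters were found in 15.6% of those that rose and 4.52% of those that fell, and RUNX letters in 22.3% and 21.4%. The shorter palindrome TTGCGCAA was in 0.0993% of all DHSs, 0.596% of those that rose and none of the C/EBP window sites. These shares are descriptions. The share in the windows rests on 10 sites.

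The genes that C/EBP factors work with were followed by a list of 14 partners and regulators, all with a tested promoter site (a DHS within 1 kb of the 5' end). Where a gene had several, it was counted by the one with the lowest adjusted p. From LSK to DN1, 2 rose (Batf and Gfi1) and 0 fell, beside 11.6% and 2.55% of 12646 promoters. At an equal length of list 0 rose and 2 fell (Spi1 and Klf4), beside 4.92% and 7.35%. From LSK to DN2b, 4 rose (Batf, Gfi1, Klf4, Stat3) and 2 fell (Trib1, Spi1), beside 21.8% and 3.83%. With lists of equal length 3 rose and 4 fell (Runx1 joined Trib1, Spi1 and Klf4), beside 11.8% and 10.4%. Batf, a leucine zipper protein of the AP-1 family, had a site at its 5' end with no peak in LSK or IgG, and read 63.2 and 38.3 in DN1, 77.8 and 73.1 in DN2a, and 90.7 and 94.9 in DN2b. It rose by 92.8 ± 7.58 points from LSK to DN2b (adjusted p = 3.04e-05). Gfi1, a repressor that opposes C/EBP-driven monocyte genes, read at +0.52 kb 69.7 and 58.6 in DN1, 70.6 and 77.7 in DN2a, 81.7 and 92.0 in DN2b, and 0 in LSK and IgG, a rise of 86.8 ± 6.34 points to DN2b (adjusted p = 1.89e-05). Stat3, which carries cytokine signals to Cebpb, gained a site at -0.33 kb in both DN2b libraries alone (94.8 and 96.4), beside a promoter site open in every library. That site entered the test through DN2b alone, and each count of partners that rose in DN2b includes it. Spi1, encoding PU.1, read 94.0, 93.6 and 91.7 in LSK, 66.8 and 83.3 in DN2b and 93.8 to 94.7 in IgG. Its fall of 18.1 ± 4.82 points to DN2b (adjusted p = 0.0251) was lost without any LSK library or DN2b replicate 1 (adjusted p up to 0.128) and was 47.1 points at equal lengths (difference -47.1, adjusted p = 0.000176). Klf4 differed by site and list length. The minor site at -0.53 kb rose (52.0 ± 13.9 points, limma, adjusted p = 0.0255), a call lost without DN2b replicate 2 or any LSK library. The main site at -0.14 kb was lower than in LSK at equal lengths in DN2b (-28.2 points, adjusted p = 0.0113). DN1 was lower there too (-30.3 points, adjusted p = 0.0125). As deposited, neither was called (DN2b -10.5 points, adjusted p = 0.321, and DN1 -10.4 points, adjusted p = 0.396).

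From LSK to IgG, 1 partner rose and 2 fell, beside 2.56% and 37.4% of promoters. Atf4, a stress-response zipper protein that can pair with C/EBPγ, rose at +0.82 kb from 75.5, 72.2 and 68.3 to 97.5, 95.1 and 91.4, by 22.7 ± 3.84 points (adjusted p = 0.0023). Trib1, the adaptor that leads C/EBPα to degradation, changed at different sites in different groups. At -0.60 kb it fell by 52.4 ± 11.3 points from LSK to IgG (adjusted p = 0.00868), while at +0.20 kb the IgG libraries read 95.6 to 97.9, LSK 79.9 to 80.3 (adjusted p = 0.642), and DN2b had no peak, a fall of 80.1 ± 17.1 points from LSK to DN2b (adjusted p = 0.00826, 0.0565 without DN2b replicate 2). Trib3, of the same family, fell by 43.6 ± 10.6 points from LSK to IgG (adjusted p = 0.0154), a call lost without LSK replicate 1 or 3 (adjusted p up to 0.0559) and at equal lengths (adjusted p = 0.157). At equal lengths 2 partners rose (Atf4, and Nfil3 by a site then open in IgG alone) and 2 fell (Trib1 and Trib2), beside 8.0% and 21.0%. From DN1 to DN2b, 2 rose (Batf and Stat3) and 1 fell (Trib1), beside 8.94% and 3.83%, and at equal lengths 3 rose and 1, now Runx1, fell, beside 7.55% and 3.56%. The fall of Trib1 was lost at equal lengths (adjusted p = 0.38) and in 10 of the 12 fits with a library left out (adjusted p up to 0.169). From DN2a to DN2b 1 partner was called higher (Stat3, by the site open in DN2b alone) and 0 fell, beside 5.96% and 0.561%. At equal lengths Batf joined it, beside 3.14% and 0.841%. Delta1 culture was higher than IgG at 6 partners and lower at 3 (Atf4, Nfil3 and Spi1), beside 61.0% and 3.79%. At equal lengths it was higher at 3 and lower at 6, beside 28.5% and 17.0%. Both counts of higher partners include Stat3 by its site open in DN2b alone. The 6 lower include Nfil3 by the site then open in IgG alone. Trib1 and Klf4 changed sides because a different site of each was counted. At both lengths Trib1 was higher at -0.60 kb and lower at +0.20 kb in Delta1 culture.

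Of 22 C/EBP target genes of granulocytes and macrophages, 17 had a tested promoter site. Csf1r, Mpo, Elane, Mmp9 and Fcgr3 had none. From LSK to IgG, 11 rose and 1 fell, where 2.56% of all promoters rose and 37.4% fell. At equal lengths 13 of 15 rose (Clec4e among them, since its -0.08 kb site then had the lower p, while its +0.69 kb site fell there too) and 0 fell, beside 8.0% and 21.0%. The list was chosen with the changes of such genes in these libraries known, so the count is no independent evidence of direction. Of the genes that rose, Camp (cathelicidin) read 97.7, 91.8 and 73.6 in IgG and at most 6.5 elsewhere. S100a8 read 93.5, 97.7 and 69.3 and S100a9 93.8, 97.8 and 61.4 in IgG, and both had no peak in any other library. Mmp8, the neutrophil collagenase, read 83.5, 80.0 and 90.2 in IgG alone. Ngp and a site of Lcn2 were likewise open in IgG alone. Promoters open in IgG alone entered the test through IgG, as did Camp, and the counts of 11 and 13 include them. At equal lengths the promoters open in IgG alone also took in Camp, Csf2ra, Ctsg, Itgam and the -0.08 kb site of Clec4e. There each of the 13 but Lyz2 was counted by a site open in IgG alone. As deposited, each of the 11 but Csf2ra, Ctsg and Itgam was counted by such a site or by that of Camp. The filter thus largely set both counts, and their comparisons with 2.56% and 8.0% decide nothing. The protease gene Ctsg read 86.5, 84.7 and 88.3 in IgG and at most 42.8 elsewhere. Other granule genes of the list were not called: Ltf differed by -3.27 points (adjusted p = 1.0), Prtn3 had no peak in IgG or LSK, and Lyz2 differed by 17.1 points (adjusted p = 0.443, 0.0211 at equal lengths). Mgst1 had 1 site in IgG alone, and another (+0.15 kb) that read 43.7, 37.2 and 32.1 in LSK, 52.4, 50.5 and 46.9 in IgG and had no peak in Delta1 culture.

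Clec4e, a macrophage lectin, was counted as the 1 that fell, but its 2 sites moved in opposite directions. At +0.69 kb the other 9 libraries read between 60.5 and 83.6 and IgG had no peak, and at -0.08 kb IgG read 70.7, 75.2 and 75.4, LSK had no peak, and DN1 replicate 1 (45.4) and DN2a replicate 2 (40.0) had a weaker peak. Both changes passed the test (adjusted p = 6.01e-05 and 0.00229). Il6ra, a receptor upstream of C/EBPβ, was counted as higher by a minor site (+0.68 kb, open in IgG alone) while its main site was open in every library. At equal lengths that main site fell by 28.0 points from LSK to DN1 (adjusted p = 0.00374) and fell by 31.4 points from LSK to DN2b (adjusted p = 0.00106), against adjusted p = 0.396 and 0.22 as deposited. From LSK to DN2b, 1 target rose (Lcn2, at another site, open in DN2b alone at 23.0 and 45.6) and 1 fell (Mgst1, at +0.15 kb, by 37.7 points, adjusted p = 0.00138, which was lost at equal lengths, adjusted p = 0.888), beside 21.8% and 3.83% of all promoters. At equal lengths 0 rose and 1 (Il6ra) fell, beside 11.8% and 10.4%. Delta1 culture lay below IgG at 12 targets and above it at 1 (Clec4e), beside 3.79% lower and 61.0% higher among all promoters. At equal lengths it lay below at 14 of 15 and above at 0, beside 17.0% and 28.5%. Both counts of lower targets include sites open in IgG alone, which entered the test through IgG. At equal lengths each of the 14 but Lyz2 and Il6ra was counted by such a site. As deposited, each of the 12 but Csf2ra, Ctsg and Itgam was counted by such a site or by that of Camp. The filter thus largely set both counts, and their comparisons with 3.79% and 17.0% decide nothing. As counted by library, 16, 14 and 17 of the 22 target promoters were open in IgG, 8, 8 and 7 in LSK, 6 and 6 in DN1, 6 and 7 in DN2a, and 8 and 9 in DN2b. At equal lengths these were 16, 14 and 17 in IgG, 3 to 4 in LSK, DN1 and DN2a, and 2 in each DN2b library. The IgG range lay above that of all other groups in both counts.

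**Figure D5:**
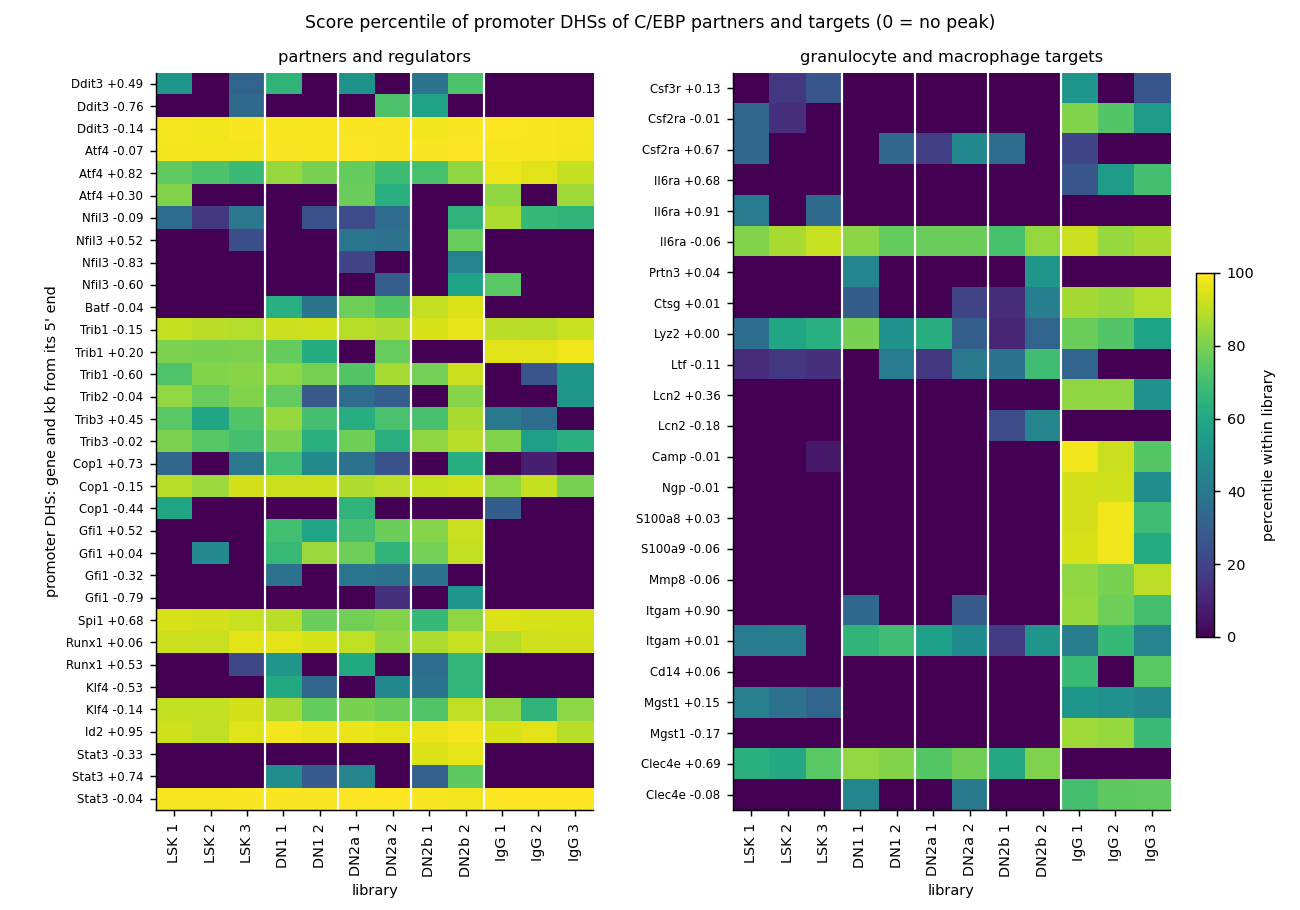
Rows are promoter DHSs (gene and kb from its 5' end) of C/EBP partners and regulators (left) and of C/EBP target genes (right), columns are the 12 libraries, and colour is the score percentile (0 where there was no peak). Camp, S100a8, S100a9, Mmp8 and Ngp are bright in the 3 IgG columns and dark in Delta1 culture, while Batf and Gfi1 show the reverse.

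The promoters whose percentiles over the 12 libraries followed the members' sites most closely were sought among 12646 protein-coding promoters (Pearson r over 12 libraries that share list lengths and groups, given as a description). The Cebpa +37.4 kb enhancer was followed by P2ry13 (r = 0.959), Ms4a7 (0.894) and Sgsh (0.879). P2ry13, a purine receptor gene, read 66.4, 66.4 and 67.0 in LSK, 87.1 and 81.9 in DN1, and 0 and 38.4 in DN2b. The Cebpa promoter was followed by Idh1 and Pikfyve (0.942, a single shared site) and Paqr7 (0.932). The Cebpd promoter was followed by Anxa1 (0.947), Arntl (0.931) and Phactr4 (0.911). Anxa1, the gene of annexin A1, read 82.4, 81.7 and 81.1 in IgG and 50.7 to 58.6 in LSK. The Cebpb +0.9 kb site was followed by Tulp4 (0.984), Mrps21 (0.981) and Rnd2 (0.976).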

How the data were processed

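Open chromatin was measured by DNase-seq in 12 libraries, grouped by the labels into LSK (3), DN1 (2), DN2a (2), DN2b (2) and IgG (3). Per the study's methods, the authors trimmed adapters, aligned reads to mm10 (BWA 0.7.12 and SAMtools 1.2 in the submitters' processing notes) and called peaks by hotspot2 with its false discovery rate set to 0.05. The deposited files hold a separate list for each library. The deposited score of each 150 bp peak has no stated meaning and was turned into a percentile within its library. Read depth is unknown. Replicate numbers are names given by order of deposition, and p-values treat libraries as independent.

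Peaks on autosomes and X that overlapped by at least 1 bp were merged into 170207 DHSs, and the 114527 with a peak in at least 2 libraries were tested. The first test was an exact permutation test of the share of variance between groups over 138600 divisions. Contrasts used limma 3.58.1 (trend, robust) in R 4.3.3, with all 12 libraries in the fit. Both were adjusted by Benjamini-Hochberg over all tested DHSs and called at 0.05. Scripts ran in Python 3.11.15. Genes came from GENCODE on GRCm38.

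Sites named were all tested DHSs within 1 kb of a member's 5' end, those 36 to 38.5 kb downstream of Cebpa, and up to 6 others per locus past the first test in order of p, besides sites said to be named after their values were seen. Listed genes were named where a promoter site passed a contrast at either list length, and promoters most like a member's site by Pearson r. Ltf, Prtn3 and Csf3r passed none and were named as target genes without a call, as were the targets without a tested promoter site. The members, lists and tests were chosen with earlier results of these data known. Alternatives were equal list lengths, the upper 50% of each list, merging at 50 bp, no filter, presence in place of the percentile, libraries without overlap in place of limma's call, promoter windows of 500 bp and 2.5 kb, and leaving out each library.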

Additional observations from a re-analysis of the deposited data

How the results depend on the processing

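Read depth is unknown, and list length, its only trace, differed most between DN2b replicates, so a missing peak says less in a short list. The number of open sites at the C/EBP loci was 165 as deposited, 102 with equal list lengths, with the upper 50% of each list 92, and with a library left out 148 to 165. The exact test called 28 sites, 11 with no filter and 0 on presence of a peak (4 to 20 with a library left out), while it called 22.3%, 8.39% and 0 of all DHSs (4.05% to 20.3%). For DN1 against LSK, 13 calls became 8 with no filter and 48 by libraries that do not overlap (4 to 22 with a library left out). For DN2b against LSK, 17 became 7 on presence and 35 by non-overlap (12 to 34). For IgG against LSK, 23 became 9 on presence and 38 by non-overlap (19 to 26). For DN2b against DN1, 12 became 2 on presence and 31 by non-overlap (11 to 22). For DN2b against DN2a, 0 became 4 at equal lengths, 1 with the upper 50% and 11 by non-overlap (0 to 12). For Delta1 culture against IgG, 57 became 27 on presence and 36 by non-overlap (45 to 77). Among all tested DHSs the non-overlap shares, higher and lower, were 29.2% and 5.12%, 25.9% and 7.99%, 5.87% and 24.2%, 15.6% and 17.0%, 19.1% and 2.99%, and 20.5% and 4.91% in that order of contrasts, beside 41 and 7, 19 and 16, 15 and 23, 9 and 22, 5 and 6, and 20 and 16 of the 118 sites. The cause was not tested. The difference of Delta1 culture minus IgG turned negative at equal lengths at Cebpd +99.1 kb (-0.767) and Cebpe +60.9 kb (-1.67). Of 201 calls at named sites and list promoters, 145 of the 190 that could be fitted kept direction and threshold at equal lengths, 132 of 181 with the upper 50%, 200 when merged at 50 bp, 164 with no filter and 81 on presence, and 129 kept them without each library in turn. The numbers of partner and target genes with a call, 9 and 13, stayed within 1.5 times under equal lengths and both other promoter windows. Counts by direction and single contrasts moved more. For Delta1 culture against IgG, 6 partners were higher and 3 lower as deposited, and 3 higher and 6 lower at equal lengths. Part of this came from the site counted. Trib1 and Klf4 changed sides by another site, while the called sites of Trib1 kept their directions. From LSK to DN2b, 1 target rose and 1 fell as deposited, and 0 rose and 1 fell at equal lengths. No paired analysis was possible because replicate numbers follow deposition order and do not link libraries of different groups.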
